A study of Myzus persicae with 4 samples.

Results

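A group of 117 contigs, out of 7554 contigs measured on arrays of Myzus persicae head RNA, gave less signal from nicotine-fed than from control-fed aphids in replicate 1 and more signal from nicotine-fed aphids in replicates 2 and 3. A contig here is an assembled transcript sequence, known on this array by a number. The members were chosen by their measured log2 ratios of nicotine over control signal. The ratio had to be -0.7 or less in replicate 1, that is a nicotine signal of at most 0.616 times the control signal, and 0.7 or more in replicates 2 and 3, or at least 1.62 times. Because the rule used every replicate of this comparison, the ratios below are a description and carry no test.

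The aphids came off cabbage plants and then fed for 24 h on an artificial liquid food of sucrose and 20 amino acids, after which their heads were dissected. It held 100 µM nicotine for the nicotine-fed aphids and no nicotine for the controls. Each 2-colour array held nicotine RNA in 1 dye and control RNA in the other, and the 4 arrays were biological replicates 1, 2 and 3, plus a technical repeat of the second. Nicotine RNA carried the green dye, Alexa Fluor 555, in replicates 1 and 3 and the red dye, Alexa Fluor 647, on both arrays of replicate 2. The labels name no aphid clone, give no number of heads per RNA sample and do not say whether the replicates came from separate cultures. How far the spread between replicates is biological or technical was not tested.

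Nicotine is an alkaloid of tobacco that activates nicotinic acetylcholine receptors, the receptors of fast excitatory transmission in the insect brain. Insects that feed on tobacco are known to deal with it by oxidation, conjugation and export, and a form of Myzus persicae lives on tobacco. An aphid head holds the brain, eyes, salivary glands, the muscles of the feeding pump and cuticle-forming epidermis, so its RNA is a mixture of these tissues. Neither the files nor the RefSeq gene table for this species pairs the 117 contigs with genes (0 of 117 matched). No function is given to any member, and the tissue was not checked against marker genes.

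In the full set of measured contigs, 798 of 7554 (10.6%) lay at or below -0.7 in replicate 1, 1242 (16.4%) lay at or above 0.7 in replicate 2 and 1322 (17.5%) did so in replicate 3. The 117 members, which met all these conditions, were 1.55% of measured contigs. They were the most frequent of the 8 combinations of direction among the 315 contigs that lay at least 0.7 from 0 in every replicate. Nicotine was higher in replicate 2 alone for 86 contigs, and lower in replicate 3 alone for 44. The mirror image of the members' pattern, higher in replicate 1 and lower in replicates 2 and 3, held 15 contigs. Nicotine was higher in all 3 replicates for 10 contigs and lower in all 3 for 0. Read by dye, the members had more red than green signal in replicates 1 and 2 and more green than red signal in replicate 3.

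**Figure D1:**
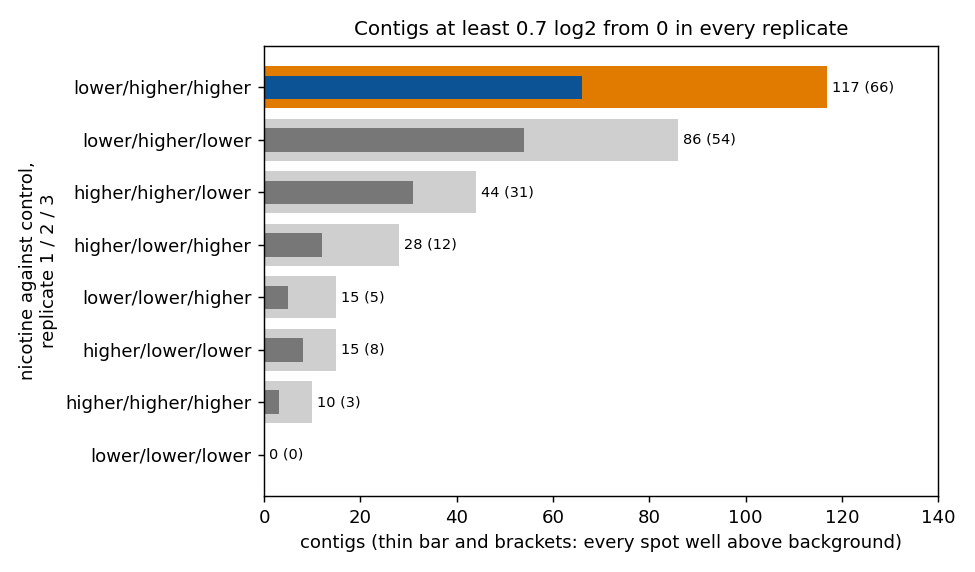
Number of contigs (x axis) at least 0.7 log2 units from 0 in every replicate, for each combination of lower or higher nicotine signal in replicates 1, 2 and 3 (y axis). The wide bar and first number count all such contigs, and the thin bar and bracketed number count those with every spot well above background. The members' pattern, in colour, holds 117 contigs, and its mirror image holds 15.

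In replicate 1 the members' log2 ratios ran from -3.96 to -0.70, with a median of -1.51. In replicate 2, with both arrays averaged, they ran from 0.71 to 3.57 with a median of 0.99. In replicate 3 they ran from 0.70 to 3.75 with a median of 1.22. Measured contigs as a whole were centred near 0, with medians of -0.00, -0.01 and 0.01 in replicates 1, 2 and 3. The difference was at least 2-fold for 98 members in replicate 1, for 57 in replicate 2, for 83 in replicate 3 and for 35 in all 3. Replicate 1 held the largest absolute ratio for 68 members, replicate 3 for 36 and replicate 2 for 13.

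The technical repeat of replicate 2 gave the direction of its first array for 117 of 117 members. The rule used the average of these 2 arrays, which favours a shared direction, so nothing is read from this count. The median ratio was 0.95 on the first array and 1.05 on the repeat, and the 2 arrays differed by a median of 0.08 in a member, against 0.04 over all measured contigs. Among the 66 members with every spot well above background the median was 0.05. The largest such gap was that of contig5382, picked out here after its values were seen, at 2.47 on the first array and 1.10 on the repeat. Its nicotine signal was 186 intensity units on the first array and 42.2 on the repeat, and neither channel was well above background on the repeat array. Between biological replicates the members' SD had a median of 1.60, against 0.55 for all measured contigs, a difference that the rule itself produces.

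**Figure D2:**
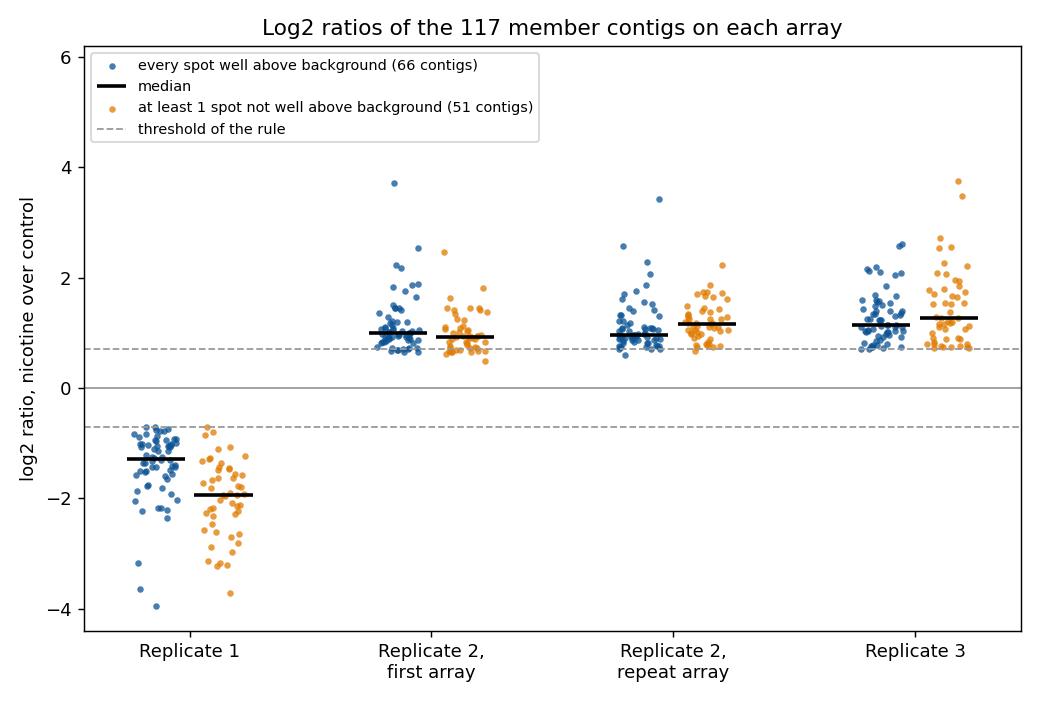
Log2 ratio of nicotine over control signal (y axis) of each of the 117 members on each array (x axis), with the members split by whether every spot was well above background. Short bars are medians and dashed lines the threshold of 0.7. All members lie above 0 on both arrays of replicate 2, whose average the rule used. In replicate 1 the dimmer members have the lower median, -1.94 against -1.28. Most of them were classed so by their replicate 1 nicotine spot, so the split itself favours that order.

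Averaged over replicates the opposite signs largely cancelled. The mean log2 ratio of a member ran from -0.47 for contig4911 to 0.98 for contig7291, both picked out for these means, with a median of 0.29, and was above 0 for 98 of 117. The nicotine spot of replicate 1 and the control spot of replicate 3 were too near background in contig7291 to give its mean exactly, and among fully detected members the highest mean was the 0.73 of contig4550. The limma fit of nicotine against control over 11205 probes called 0 probes (0%) at an adjusted p under 0.05, and 47 (0.419%) lay under an unadjusted 0.05. Of the members' 163 probes, 0 had an unadjusted p under 0.05, and their lowest adjusted p in the limma fit was 0.9998. Their median standard error was 0.54, against 0.30 for all tested probes. The members were picked for opposite directions, so nothing is read from these counts.

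How well each ratio was measured differed among members. A spot counts as well above background when the scanner software marked its signal so. Every spot was so marked, in both channels on all 4 arrays, for 66 members (56.4%), against 6707 of the 7554 measured contigs (88.8%). These 66 were 0.984% of contigs detected that fully. Of the 315 contigs at least 0.7 from 0 in every replicate, in any direction, 179 were fully detected. The lower share is therefore not particular to the members' pattern. The other 51 members had at least 1 spot near background, most often the nicotine spot of replicate 1, which was too dim for 48 members. The control spot of replicate 1 was too dim for 0 members. The control spot was too dim for 24 members on the first array of replicate 2, for 46 on its repeat and for 6 in replicate 3. Probes entered with at least 1 channel well above background in each replicate. The rule made control the higher channel in replicate 1 and nicotine the higher one in replicates 2 and 3. The side on which dim spots fell thus largely follows from the selection. In replicate 1 the median log2 ratio was -1.94 for the 51 partly dim members and -1.28 for the 66 fully detected ones. The split was made largely by the nicotine spot of replicate 1, which enters this ratio, so nothing is read from the difference. In replicates 2 and 3 the 2 sets were closer, at 1.04 and 0.97 in replicate 2 and 1.26 and 1.14 in replicate 3. No spot of a member (0) was saturated, and 0 members had a spot marked as an outlier.

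The members' probes were dim as a set. Their median brightness, the log2 signal averaged over channels and arrays, stood at the 21.6th percentile of measured contigs, with members between the 0.0662nd and the 92.1st. Ordered by brightness, the contigs were split into 4 classes of nearly equal size, of which the dimmest held 65 members (3.44%), the next 30 (1.59%), the third 16 (0.847%) and the brightest 6 (0.318%). Brightness differs between probes for reasons other than transcript amount, so this order says nothing of abundance. Across the 117 members, which share the same arrays, brightness and the replicate 1 ratio had a Spearman correlation of 0.45. Brightness is formed from the same signals as the ratios, so this correlation is not independent of the rule. The members' median ratio in replicate 1 was -1.82 in the dimmest class and -1.40 in the next, was closest to 0 in the third, and was -1.54 in the brightest, so the 6 brightest members did not follow the order of the others. When each spot that was not well above background was raised to the lowest signal of a spot that was, 88 of 117 members still met the rule, and the median in replicate 1 became -1.14. With normexp background correction and loess normalization in place of the processed signals, 71 contigs met the rule. Of these, 70 were members, which is 59.8% of the members. All 117 members kept their direction in every replicate. The loess values come from the same spots of contigs chosen for that direction, so nothing is read from the kept direction.

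Of the members, 46 had 2 measured probes and 71 had 1. Both probes lay in the direction of the rule in every replicate for 46 of 46, and both were past 0.7 in every replicate for 36. The rule was set on the mean of these same probes, which favours both counts, so they are no separate check. The 2 probes of a member differed by a median of 0.08 in replicate 1, 0.10 in replicate 2 and 0.15 in replicate 3. The same medians over 3522 contigs with 2 measured probes were 0.07, 0.12 and 0.15. The widest gaps were in contig2141, whose probes gave -0.59 and -1.26 in replicate 1, and in contig1528, picked out after its values were seen, with a gap of 0.76 between probes in replicate 2. A further 6 probes of members were too dim to enter the rule, and 6 of 6 had negative ratios in replicate 1 and positive ratios in replicates 2 and 3. They belong to contigs that the rule chose, on the same arrays, and no share over other dim probes is given. Nothing is read from this count. Member probes were found in all 4 corners of the array, split at its middle row and column, making up between 1.22% and 1.85% of its measured probes.

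The 3 members with the brightest probes were contig9067, contig4550 and contig4108. The nicotine signal of contig4550 was 3244 in replicate 1, 21127 and 20283 on the arrays of replicate 2 and 5462 in replicate 3, against control signals of 50862, 1677 and 1977, and 881. Control was 15.6 times nicotine in replicate 1, while nicotine was 11.9 times control in replicate 2 and 5.96 times in replicate 3. Its mean log2 ratio was 0.73 ± 4.09 (SD, n = 3), and of all members it had the largest absolute ratios in replicates 1 and 2. It rests on 1 probe, which was well above background in both channels throughout.

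For contig9067, nicotine signals were 6493 in replicate 1, 9933 and 8554 in replicate 2 and 14268 in replicate 3, against control signals of 29656, 5299 and 4914, and 7198. Its control signal, read in the same dye, was far higher in replicate 1 than in replicate 3, and its log2 ratios averaged -0.11 ± 1.79 (SD, n = 3). The contig4108 probes averaged 5755, 11708 and 6529, and 6239.6 in nicotine RNA in the same order, against 13960.3, 3325 and 1936, and 2957 in control RNA. Its log2 ratios were -1.27, 1.87 and 1.02 in replicates 1, 2 and 3. On the repeat array its probe M_persicae4108b gave 2473 in nicotine and 678 in control, against 10584 and 3195 for M_persicae4108a. Both channels of that spot were dimmer together, and the ratio was 1.93, close to the 1.79 of the other probe.

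Among the 30 members with 2 measured probes and every spot well above background, the 12 whose weakest replicate had the largest absolute ratio are described, and contig4108 was again one of them. Leading this order was contig4040, with nicotine signals of 2449.7 in replicate 1, 1919.8 and 1763 in replicate 2 and 1696 in replicate 3. Its control signals were 6466 in replicate 1, then 598 and 673, and 578. Between replicates 1 and 3, read in the same dyes, the nicotine signals of contig4040 lay far closer together than its control signals, and its log2 ratios were -1.40, 1.64 and 1.50. A similar arrangement was seen in contig3564, where nicotine signals of 1469, 2389 and 1518, and 1579 stood against control signals of 3272, 1134 and 750.0, and 708. The ratios of contig3564 were -1.14, 1.11 and 1.10, nearly equal in size.

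In other members both RNA samples differed between replicates. The contig3964 signals from nicotine RNA were 441 in replicate 1, 585 and 385 in replicate 2 and 1341 in replicate 3, against 1201, 258 and 169.8, and 442 from control RNA. Between replicates 1 and 3 its nicotine signal was higher and its control signal lower in replicate 3, and the ratios were -1.44, 1.20 and 1.59. For contig1206 nicotine gave 259.8, 478 and 289, and 808, against control signals of 821, 230.4 and 148, and 257. Its ratios of -1.65, 1.07 and 1.60 were much like those of contig898, at -1.51, 0.99 and 1.57. The probes of contig898 averaged 139.6, 399.5 and 265, and 481 for nicotine RNA, against 399.6, 208 and 141, and 155 for control RNA. The nicotine signals of contig695 were 990.3, 1678 and 1308, and 3084, against control signals of 2054, 776 and 605, and 721. Nicotine was higher and control lower in replicate 3 than in replicate 1, and its ratios were -1.04, 1.18 and 2.04.

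Signals of contig2052 were 725, 1935 and 1389, and 1562 with nicotine, against 1819, 738 and 552, and 691 in control RNA, for ratios of -1.32, 1.42 and 1.12. With contig220 the nicotine signals of 666, 975 and 859, and 1429 stood against control signals of 1386, 507 and 426, and 550.2, and its ratios were -1.05, 1.04 and 1.33. In both contigs the nicotine signal was lower and the control signal higher in replicate 1 than in replicate 3, which had the same dyes. Ratios of contig2141 were -0.93, 1.17 and 0.94 with its 2 probes averaged, from nicotine signals of 1609.5, 3001 and 2239.7, and 3144 against control signals of 3180.5, 1373 and 1057, and 1522. Control was above nicotine in replicate 1 and below it on the other 3 arrays. Its probe M_persicae2141a gave -0.59 in replicate 1 and 0.58 in replicate 3, short of the threshold in both. M_persicae2141b gave -1.26 and 1.30. The most negative ratio among the 12 was that of contig874 in replicate 1, -2.04. Its nicotine signals were 205, 596 and 444, and 871, against 844, 242 and 182, and 445 in control RNA, with ratios of 1.34 and 0.93 in replicates 2 and 3. Means over the 12 contigs' replicates lay between 0.08 ± 1.84 for contig874 and 0.72 ± 1.59 for contig695 (SD, n = 3 each), each smaller than its SD.

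Also among the 12, contig3214 belonged to the only run of consecutive numbers among the members, contig3214, contig3215 and contig3216. Its nicotine signals were 189.8 in replicate 1, 455 and 346 in replicate 2 and 599 in replicate 3, against control signals of 445, 246 and 184, and 277. They gave ratios of -1.22, 0.96 and 1.03. The neighbours, picked out after their values were seen, had ratios of -1.05, 0.74 and 1.40 for contig3215 and -1.30, 0.97 and 0.99 for contig3216. From replicate 1 to replicate 3 in the same dye, the nicotine signal differed by 1.56, 1.74 and 1.71 log2 units in the order of their numbers, and the control signal by -0.68, -0.69 and -0.56. The 3 contigs thus shared the gap between diets in a similar way, mostly through nicotine RNA, and contig3216 had spots near background. A larger difference in nicotine is not particular to them, because control differed more in size than nicotine for only 44 of 117 members. Whether consecutive numbers mark related sequences was not tested.

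**Figure D3:**
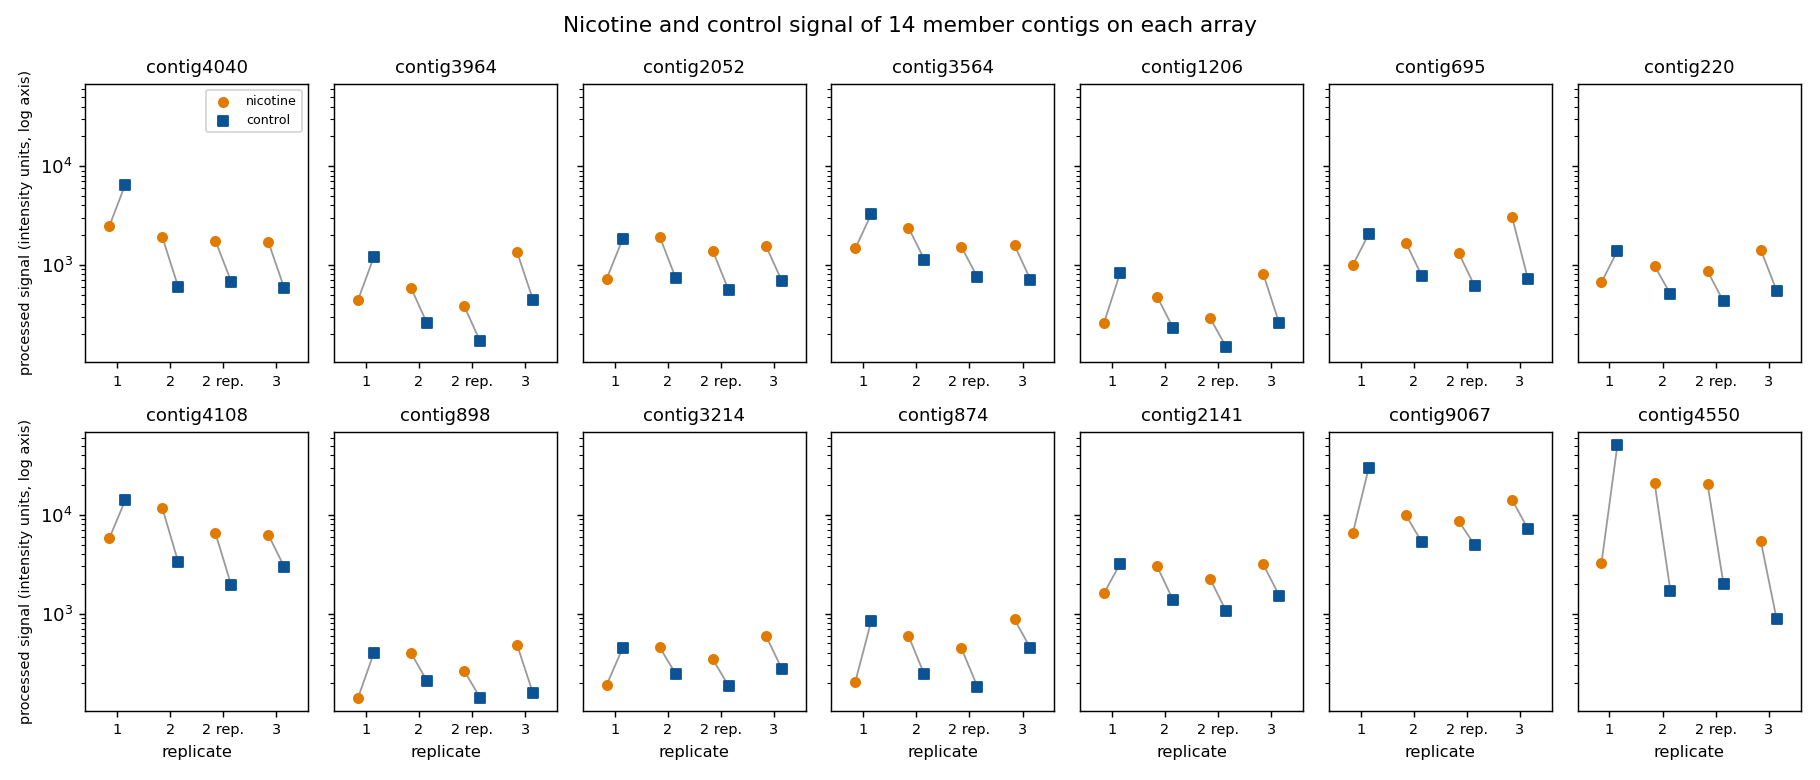
Processed signal in intensity units (y axis, log scale) from nicotine RNA (circles) and control RNA (squares) on each array (x axis, with 2 rep. for the repeat array) for 14 members, each point the mean of the contig's measured probes. In every panel the square is above the circle in replicate 1 and below it on the other 3 arrays. Heights are not comparable between contigs, because probes differ in brightness.

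Replicates 1 and 3 carried the same dyes, so each diet's RNA can be set side by side between them in 1 dye, as the log2 signal relative to the median of its channel. The members' nicotine signal was higher in replicate 3 than in replicate 1 by a median of 1.73 (quartiles 1.06 and 2.21), and their control signal was lower by a median log2 difference of -1.22 (quartiles -1.71 and -0.72). The centring holds these medians near 0 over all measured contigs. Nicotine was higher and control lower in replicate 3 for 108 of 117 members. The rule fixes that the nicotine difference minus the control difference is at least 1.4, which favours opposite signs, so nothing is read from this count. The rule did not fix how the gap was shared between the diets. The background filter bears on it, because in replicate 1 the nicotine spot was too dim for 48 members and the control spot for 0. Among the 66 fully detected members the medians were 1.27 for nicotine and -1.33 for control, and 62 had nicotine higher and control lower.

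The sharing of the gap differed among members. Both differences were at least 1 log2 unit in size for 44 members, contig695 at 1.57 in nicotine and -1.50 in control among them. In 10 members the control signal was at least 1 lower in replicate 3 while the nicotine signal lay within 0.5. They included contig4108, at 0.05 in nicotine and -2.23 in control, and contig3564, at 0.05 and -2.19. In 21 members the nicotine signal was at least 1 higher while control lay within 0.5, such as contig5458, at 2.13 and -0.02. Of these classes, 24, 8 and 7 members in the same order were fully detected. The classes were not counted over all contigs. Control differed more in size than nicotine for 44 of 117 members, against 3976 of 7554 measured contigs. Among those fully detected it did so for 33 of 66 members, against 3605 of 6707 contigs. The class bounds of 0.5 and 1, and contig5458 as the example, were chosen after the values were seen. For contig4040 both signals were lower in replicate 3, by 0.60 in nicotine and by 3.48 in control on the log2 scale. The largest single difference was the control signal of contig4550, at -5.84.

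**Figure D4:**
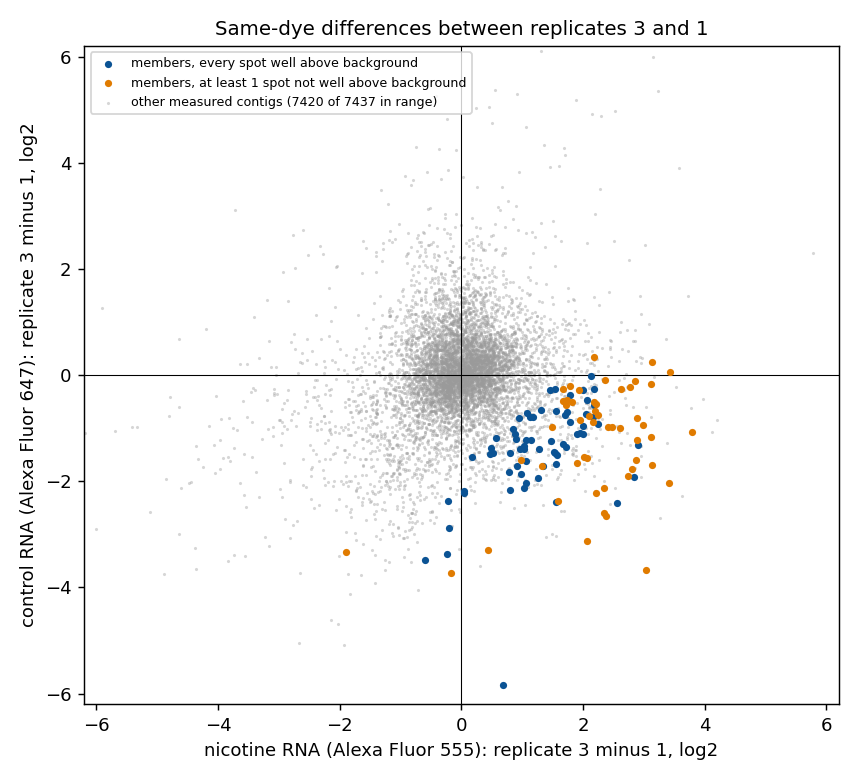
Log2 difference between replicate 3 and replicate 1 in nicotine RNA (x axis) and in control RNA (y axis), each relative to its channel median, for members and for other measured contigs. A further 17 other contigs lie beyond the axes. Most members sit in the lower right, where 108 of 117 have higher nicotine and lower control signal in replicate 3, and the cloud of other contigs is centred on 0.

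Relative to the channel median, the fully detected members had median nicotine levels of -0.96 in replicate 1, -0.48 on both arrays of replicate 2 and 0.36 in replicate 3. Their median control levels were 0.29 in replicate 1, -1.42 and -1.44 in replicate 2 and -0.98 in replicate 3. Replicate 2 was read in swapped dyes, so its levels are only given beside those of replicates 1 and 3. In these pooled heads, fewer cells that make a transcript and less transcript per cell cannot be told apart.

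The edges of the group were close to contigs left out of it. Just inside, contig2697 had ratios of -0.70, 0.88 and 1.03, and contig3510 had -1.31, 1.38 and 0.70. Just outside, contig9141 had ratios of -2.11, 0.70 and 2.05, its value in replicate 2 falling short of the threshold before rounding, and contig9364 had -0.74, 0.69 and 1.35. Members with 1 probe on the array made up 65 of 3849 such contigs (1.69%), and those with 2 probes on the array 52 of 3705 (1.40%). Across members the Spearman correlation of the signed ratios was -0.32 between replicates 1 and 2, -0.12 between replicates 1 and 3 and -0.16 between replicates 2 and 3. All ratios in replicate 1 are negative. Its negative correlations therefore mean that members further from 0 there tended to be further from 0 in replicates 2 and 3. Between replicates 2 and 3 the tendency was the reverse. These describe 117 contigs on shared arrays and within the limits set by the threshold.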

How the data were processed

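Median spot and background intensity and processed intensity come from scanner files whose headers name version 10.1.1.1 of Agilent's Feature Extraction software. Per the headers' statistics, the deposited processed intensity values were background-subtracted, spatially detrended and dye-normalized. Flags of each spot come from the same software. In the authors' deposited table the values are log2 ratios of red over green, for which limma is named in the submitters' processing notes. On each array the deposited table correlated at 0.999 with ratios made here from the median intensities by normexp and loess. The slopes were from 0.998 to 1.00, which settles scale and channel order, with column medians from -0.02 to 0.004. The table was not correlated with the processed signals that the rule used. Which RNA carried which dye rests on the labels.

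Contig probes well above background in either channel in each replicate entered the rule (11076 of 14434 probes). Processed signals were turned by dye label, centred on the median of these probes, averaged over replicate 2's arrays and over a contig's probes. The whole-table fit used limma 3.58.1 in R 4.3.3 on normexp (offset 50) and loess values, n = 3, Benjamini-Hochberg adjusted over 11205 probes, leaving out 3408 dim and 15 outlier-flagged ones. It was tested on simulated data. Contigs were named as follows: the 12 fully detected members with 2 measured probes and the largest minimum ratio, the 3 brightest, and 2 on each side of the threshold. The members and lists were chosen with earlier results of these data known. The number of arrays limits precision. Alternatives are in the closing section.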

Additional observations from a re-analysis of the deposited data

How the results depend on the processing

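The count of 117 members became 240 at a threshold of 0.5 and 35 at a threshold of 1. It was 71 with normexp and loess, 72 with the authors' deposited table and 76 where both channels had to be well above background in every replicate. The loess values and the deposited table are nearly the same, so they are not separate checks. Asked of 2 replicates only, leaving out each in turn, between 181 and 392 contigs met the rule. The other settings gave counts from 88 to 129. The median log2 ratio in replicate 1, -1.51 as reported, was -1.23 with loess, -1.22 with the authors' deposited table, -1.30 with both channels above background and -1.14 with dim spots raised to the floor. In replicate 2 it was 0.99 as reported and 0.80, 0.82, 0.98 and 0.89 in the same settings, and 1.05 from the repeat array alone. In replicate 3 it was 1.22 as reported and 1.09, 1.09, 1.15 and 1.18. The same-dye difference between replicates 3 and 1 in nicotine, 1.73 as reported, was 1.31 with Aquantile values, 1.93 with 75th percentile centring and 1.27 over fully detected members. That in control, -1.22 as reported, was -1.20, -1.09 and -1.33. With percentile centring the median over all contigs was 0.20 in nicotine and 0.13 in control, against 0.01 and -0.00 as reported. This centring moves every contig of a channel by the same amount, so members and other contigs shift together by construction. No median changed sign in these settings. The rule set the signs of the ratio medians, so nothing is read from that. The cause of the other shifts was not tested.

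The diet fit called 0 probes in all 10 settings run, and its lowest adjusted p was 0.0889, reached when replicate 3 was left out, and at least 0.9996 in the other 9 settings. There were between 31 and 190 tests under an unadjusted 0.05. Settings of the centre, no centring, the floor and the fully detected subset were chosen after seeing the data. Each ratio sets the nicotine and control RNA of 1 array against each other, so the diet fit is itself paired, and there was no unpaired fit to set beside it. Signal near background limits the replicate 1 ratios of 48 members.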
